A study of Mus musculus with 10 samples.

Results

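The genes of the pore-forming and auxiliary subunits of voltage-gated calcium channels, voltage-gated sodium channels and the hyperpolarization-activated pacemaker channels were examined in the left ventricle (LV) of mice. Members were taken by gene symbol alone, and the rule used no measured value, though it was set with earlier results of these data known. They were every gene whose symbol begins with Cacn, every Scn gene whose number is followed by a or b, and every numbered Hcn gene. The rule gave 44 of the 55401 genes in the tables. They were 10 calcium channel pores (Cacna1), 4 alpha2delta subunits (Cacna2d), 4 beta subunits (Cacnb), 8 gamma subunits (Cacng), 10 sodium channel pores, 4 sodium channel beta subunits and 4 pacemaker channels (Hcn). LV tissue of 5 mice with neonatal ascending aorta constriction (nAAC) was compared with that of 5 sham-operated mice. All 10 mice were wild type, of the C57BL/6 strain by the methods of the study, were operated as newborns, stayed with their mothers and were sampled at 4 weeks. nAAC narrows the aorta just above the heart, so that the LV grows up ejecting against a raised pressure. Each library was made from the whole LV tissue of 1 mouse, and the labels gave neither sex nor batch.

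In a working ventricular myocyte the sodium channel starts the action potential and the L-type calcium channel keeps the cell depolarized and triggers contraction. Each channel is a large pore protein with smaller partners, of which the beta and alpha2delta subunits carry calcium channel pores to the membrane and tune their gating. T-type calcium channels and pacemaker channels open near the resting potential and drive the rhythm of the sinus node, and they are present in the fetal ventricle and decline after birth. Many other members of these families are known from nerve, sensory organs or skeletal muscle.

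Values are the deposited FPKM, fragments per kilobase of transcript scaled to the library total, and a fold change (FC) was fitted on log2(FPKM + 1), a scale that understates the change of weakly expressed genes. The test was limma with Benjamini-Hochberg adjustment over the 11867 genes whose mean FPKM reached 1, and members from 0.1 to 1 were read from the same fit over the 17371 genes with a mean of at least 0.1. The depth of the libraries was estimated at 4.86 to 6.82 gigabases in nAAC mice and 5.06 to 5.24 in sham mice, but no fragment counts were given, so the error of each value was taken from the spread between mice. Across all tested genes the median log2 FC was 0.22, and after median-ratio scaling, which sets the typical gene of each library to the same level, it was -0.001. Sham replicate 4 stood apart from the other libraries, since in it the 591 tested genes with transcripts over 8000 bases lay at a median of -0.45 from their group mean on the log2 scale, against -0.15 to 0.19 elsewhere. Results that rest on that mouse are given with and without it. Among 6 markers of ventricular myocytes, all were expressed, with summed FPKM of 10190 to 17090 in nAAC and 11570 to 25960 in sham mice, of which Actn2 rose and Tnni3 fell. In whole tissue, fewer cells of a type and less RNA per cell cannot be told apart. Of the smooth muscle markers 4 of 4 rose, and their summed FPKM ran from 65.0 to 148.8 in nAAC mice against 47.0 to 65.3 in sham mice. Of the fibroblast markers 3 of 4 rose (summed FPKM 362.9 to 574.1 against 310.1 to 325.0). Of the endothelial markers 1 of 4 rose (117.4 to 221.3 against 108.1 to 186.9). Among all tested genes 27.1% rose and 4.6% fell. After median-ratio scaling Acta2, Dcn and Kdr did not pass (limma adjusted p = 0.0957, 0.43 and 0.178), and the other markers that rose still passed. The myocyte marker Myh6 did not pass as deposited (log2 FC -0.27, limma adjusted p = 0.288) but fell after that scaling (-0.55, adjusted p = 0.0272). The part of these cell types in the results on the channel genes was not tested.

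Of the members, 12 had a mean FPKM of at least 1, 13 had one from 0.1 to 1 and 19 lay under 0.1. The main ventricular calcium channel subunits Cacna2d1, Cacna1c and Cacnb2 were each at 8.97 FPKM or more in every mouse. The number of members at an FPKM of at least 1 was 11 in each nAAC mouse and 13 or 14 in each sham mouse, whereas over all genes that number was larger in nAAC mice, at 11889 to 12455 against 11182 to 11721. An FPKM of 1 was reached by 9 members in all 10 mice and by 29 in none. Of the 12 members tested 4 rose, Cacnb1, Cacnb3 and Cacng7 among them, Scn4a fell and 7 did not pass. Among all tested genes 27.1% rose and 4.6% fell, so on the deposited scale 4 of 12 is not far above the share of all genes. These shares depended on scaling. After median-ratio scaling 4 of the 12 members again rose and 1 fell, where 1563 of the 11867 genes rose and 1431 fell. Groups that did not overlap were seen in 5 of the 12 members, against 22.3% of all tested genes. With the added condition of an absolute log2 FC above 1, 2 members remained, Cacnb1 among them, where 5.91% of all genes passed. Among the 13 members from 0.1 to 1, none rose and 4 fell, namely Cacna1h, Hcn4, Cacng6 and Scn10a. Over all 25 members of the wider fit 4 rose and 5 fell, where 22.6% of its genes rose and 4.04% fell. Those shares include the genes with a mean of at least 1, and no share was taken over genes from 0.1 to 1 alone. Of the 25 members of at least 0.1, 9 had groups that did not overlap, against 19.6% of all genes in that fit. The median log2 FC of the 12 tested members was 0.08, below the 0.22 of all tested genes.

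**Figure D1:**
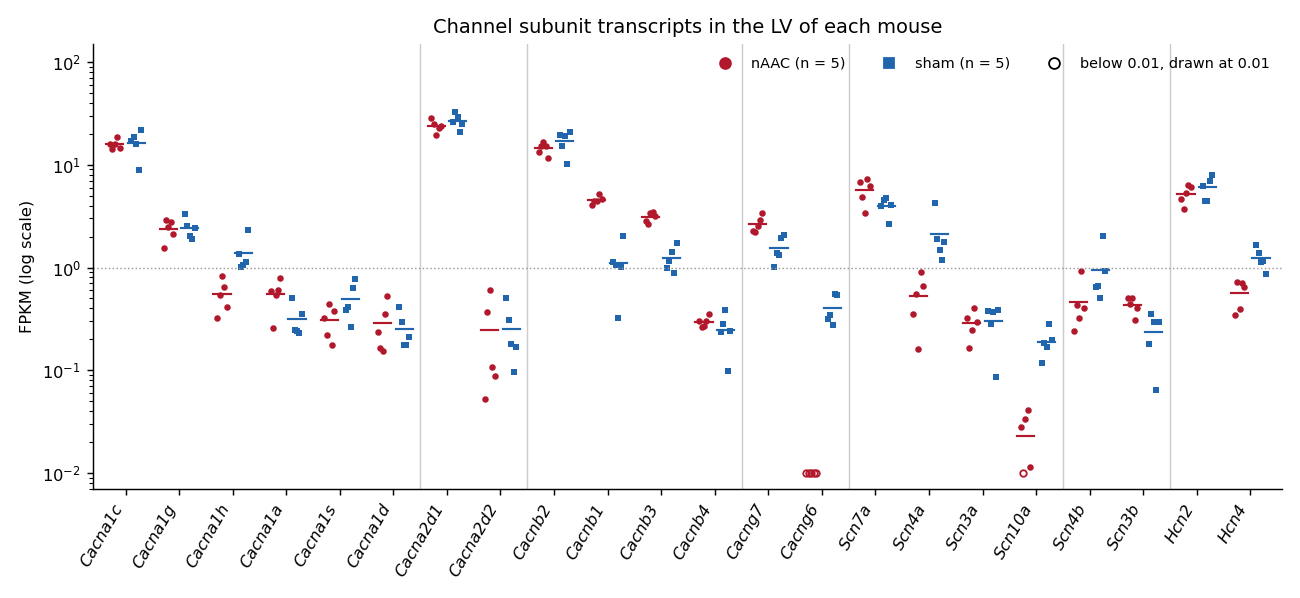
FPKM on a log axis of 22 members with a mean of at least 0.1, one point per mouse (circles nAAC, squares sham, n = 5 each, short lines the group means), ordered by family, with values below 0.01 drawn open at 0.01. Groups are apart for Cacna1h, Cacnb1, Cacnb3, Cacng7, Cacng6, Scn4a, Scn10a and Hcn4, and overlap for Cacna1c, the main calcium channel pore of the ventricle.

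Among the calcium channel pores, the L-type pore of the ventricle did not pass the test and the T-type pore Cacna1h fell. Cacna1c (chromosome 6, 118587240 to 119196890, minus strand, mm10) encodes Cav1.2, the pore that carries the L-type current of the ventricular myocyte. Its FPKM was 16.1, 14.4, 15.8, 18.7 and 14.7 in nAAC replicates 1 to 5 and 17.2, 18.7, 15.9, 8.97 and 21.6 in sham replicates 1 to 5. The nAAC values sat within the sham range, whose lowest value was that of sham replicate 4. Cacna1c had a log2 FC of 0.002 (SE 0.19, limma adjusted p = 0.995), and of -0.19 without sham replicate 4 (adjusted p = 0.223). It overlaps Dcp1b on the other strand, which had mean FPKM of 1.29 in nAAC and 0.916 in sham mice, and the use of strand in counting was not stated.

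Cacna1h encodes Cav3.2, a T-type pore of the fetal ventricle, the conduction system and also of nerve and smooth muscle (chromosome 17, 25374285 to 25433783, minus strand). It was measured at 0.323, 0.538, 0.821, 0.648 and 0.409 FPKM in nAAC mice and at 1.36, 1.01, 1.06, 1.14 and 2.33 FPKM in sham mice. All nAAC mice lay below all sham mice, and the group means of 0.548 ± 0.197 and 1.38 ± 0.546 (SD, n = 5 each) differed 2.52-fold. The log2 FC was -0.60 (SE 0.14, limma adjusted p = 0.0075). Return of T-type pores to the ventricle is known from overloaded adult hearts of other models. The other cardiac T-type pore, Cacna1g (Cav3.1), was at 1.54, 2.92, 2.46, 2.80 and 2.10 FPKM in nAAC mice and at 3.33, 2.54, 2.03, 1.90 and 2.45 in sham mice. Cacna1g ranges overlapped almost entirely, and it did not pass (log2 FC -0.039, SE 0.15, limma adjusted p = 0.861). Its direction was not stable, since it was 0.089 with TPM in place of FPKM and -0.24 after median-ratio scaling.

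Cacna1d, which encodes Cav1.3, an L-type pore of the sinus node and atrium, was weakly expressed. It ranged from 0.153 to 0.533 FPKM in nAAC mice against 0.175 to 0.416 in sham mice, and did not pass (log2 FC 0.033, SE 0.091, limma adjusted p = 0.814). Dcp1a overlaps it with mean FPKM of 2.37 and 1.93, above Cacna1d itself, so its value is uncertain. The remaining pores of at least 0.1 are best known outside the heart. Cacna1a, the P/Q-type pore of nerve terminals, had 0.255 to 0.784 FPKM in nAAC and 0.233 to 0.501 in sham mice (limma adjusted p = 0.098). Cacna1s, the pore of skeletal muscle, had 0.174 to 0.442 against 0.264 to 0.775 FPKM (limma adjusted p = 0.191). Within a mouse Cacna1c made up 79.6% ± 2.78 of the summed FPKM of the 10 pores in nAAC mice and 76.3% ± 5.14 in sham mice, and Cacna1h 2.71% ± 0.894 against 6.54% ± 1.92 (SD, n = 5 each). By deposited coverage the shares were 30.8% ± 3.39 and 24.9% ± 4.84 for Cacna1c, below Cacna1g at 43.7% ± 5.96 and 38.2% ± 7.39, and 12.7% ± 3.84 and 24.5% ± 5.98 for Cacna1h.

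The beta subunits changed in make-up. Cacnb2, the main cardiac beta subunit, did not pass while Cacnb1 and Cacnb3 rose, so that Cacnb2 made up 86.6% ± 3.0 of the summed FPKM of the 4 beta genes in sham mice and 64.3% ± 3.58 in nAAC mice (SD, n = 5 each). Beta subunits bind inside the cell to the loop after the first repeat of the pore and set how many channels reach the membrane. Cacnb1 (chromosome 11, 98001508 to 98023034, minus strand), the beta subunit of skeletal muscle that other tissues also express, was at 4.07, 4.43, 4.43, 5.15 and 4.59 FPKM in nAAC mice. In sham mice it was at 1.13, 1.06, 0.325, 1.01 and 2.01 FPKM. Every nAAC mouse was above 4 FPKM and no sham mouse above 2.01, and the means of 4.53 ± 0.395 and 1.11 ± 0.599 (SD, n = 5 each) differed 4.10-fold. The log2 FC was 1.44 (SE 0.17, limma adjusted p = 5.04e-05) and 1.26 after median-ratio scaling. The noncoding gene Gm11629 on the other strand overlaps its start and had mean FPKM of 0.185 in nAAC and 0.015 in sham mice. The use of strand in counting was not stated, and the part of Gm11629 in the Cacnb1 result was not tested.

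Cacnb3 (chromosome 15, 98630840 to 98644529, plus strand) is a beta subunit known from brain and smooth muscle. Its FPKM was 2.83, 2.68, 3.41, 3.48 and 3.16 in nAAC mice and 0.988, 1.15, 1.40, 0.890 and 1.74 in sham mice. The groups did not overlap and the means differed 2.52-fold. Cacnb3 had a log2 FC of 0.89 (SE 0.12, limma adjusted p = 0.000144). The smallest value over all alternatives was 0.41, by deposited coverage, where the level was so low that the added 1 shrinks it. With trends on transcript length and GC content removed Cacnb3 was at 0.43 and passed narrowly (limma adjusted p = 0.0446). Cacnb2 was at 13.5, 15.2, 16.8, 15.1 and 11.6 FPKM in nAAC mice and at 19.7, 15.1, 19.3, 10.1 and 21.0 in sham mice. The sham mice were spread on both sides of the nAAC mice, with sham replicate 4 the lowest of all. It did not pass with all mice (log2 FC -0.19, SE 0.18, limma adjusted p = 0.433), and without sham replicate 4 it was lower in nAAC (log2 FC -0.36, limma adjusted p = 0.0491), so the call on Cacnb2 rests on that mouse. Several short genes lie within the Cacnb2 locus, of which Gm13316 had mean FPKM of 0.805 and 0.66. Cacnb4, the brain beta subunit, did not pass at 0.264 to 0.354 FPKM against 0.0974 to 0.388.

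The sequences just before the RefSeq transcription starts of 3 members that rose are shown so that their base composition can be compared, with letters of 6 searched motifs in capitals. They were read from RefSeq on GRCm38.p6, 5′ to 3′ on the gene's strand, from 250 bases before the start and ending where an annotated exon began. Cacnb1 spans chr11:98022635-98022877 (minus strand) and Cacnb3 chr15:98632078-98632327 (plus strand), each inside the longer deposited model of its gene. Cacng7, described next, spans chr7:3332575-3332824 (plus strand).
Cacnb1: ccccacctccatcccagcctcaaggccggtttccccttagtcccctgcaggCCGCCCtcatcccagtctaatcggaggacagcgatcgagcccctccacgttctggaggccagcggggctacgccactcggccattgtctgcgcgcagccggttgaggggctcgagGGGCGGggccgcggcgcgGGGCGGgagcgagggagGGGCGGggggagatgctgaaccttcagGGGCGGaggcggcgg
Cacnb3: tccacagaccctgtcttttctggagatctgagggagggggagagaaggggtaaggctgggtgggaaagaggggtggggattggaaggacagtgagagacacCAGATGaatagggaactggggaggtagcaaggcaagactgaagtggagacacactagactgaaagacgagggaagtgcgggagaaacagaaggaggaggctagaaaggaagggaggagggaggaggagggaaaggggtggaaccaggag
Cacng7: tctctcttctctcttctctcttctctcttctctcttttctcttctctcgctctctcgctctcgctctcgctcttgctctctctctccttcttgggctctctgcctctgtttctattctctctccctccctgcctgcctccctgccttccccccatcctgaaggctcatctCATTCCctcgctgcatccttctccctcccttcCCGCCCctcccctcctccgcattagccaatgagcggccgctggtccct
The Cacnb1 stretch was 72.4% G and C and held 5 GC boxes (GGGCGG, either strand), a motif found in 32.7% of all 32851 promoter windows. The Cacnb3 stretch was 56.0% G and C and held no GC box and 1 E-box (CANNTG, either strand), which 66.2% of all windows hold. The Cacng7 stretch, 58.0% G and C, held 1 GC box and 1 MCAT letter run (CATTCC, either strand, in 12.6% of windows). None of the 3 held the GATA letters AGATAA on either strand, which 9.99% of windows hold. The AP-1 letters TGANTCA, in 6.75% of windows on either strand, were also in none of them. The T-box letters AGGTGT, in 11.8% of windows on either strand, were likewise in none. No searched motif was thus shared among all 3, and the median window was 52.4% G and C. An entry for the window was found for 32 of the 44 members.

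No alpha2delta subunit passed the test. Cacna2d1, the cardiac alpha2delta subunit and a protein outside the membrane that raises the L-type current, was at 28.4, 24.9, 19.4, 22.6 and 24.0 FPKM in nAAC mice and at 26.3, 32.4, 29.3, 20.8 and 24.8 in sham mice. The ranges overlapped and it did not pass (log2 FC -0.15, SE 0.14, limma adjusted p = 0.425). It made up 98.5% ± 1.10 of the alpha2delta FPKM in nAAC mice and 98.9% ± 0.594 in sham mice (SD, n = 5 each). Cacna2d2 had 0.0522 to 0.601 FPKM in nAAC mice and 0.0969 to 0.504 in sham mice and did not pass (limma adjusted p = 0.928).

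The gamma subunit genes Cacng7, Cacng8 and Cacng6 lie in a row on chromosome 7, with gaps of 22.5 and 8.55 kb. Cacng7 (3332955 to 3368221, plus strand), a subunit known mostly as a partner of glutamate receptors, was at 2.25, 2.21, 2.56, 2.89 and 3.38 FPKM in nAAC mice and at 1.02, 1.39, 1.31, 1.92 and 2.07 in sham mice. The lowest nAAC value lay just above the highest sham value, and the means differed 1.72-fold. Cacng7 had a log2 FC of 0.53 (SE 0.14, limma adjusted p = 0.0109), 0.35 after median-ratio scaling (adjusted p = 0.0457), 0.33 with Xist, the transcript of the inactive X chromosome, as a covariate (adjusted p = 0.137) and 0.15 with trends on transcript length and GC content removed (adjusted p = 0.363), so its call ended in the last pair of settings. Cacng6 (3424195 to 3435667, plus strand), whose protein is a close relative of the skeletal muscle gamma subunit and is known to dampen calcium currents, was listed at 0 in all 5 nAAC mice. In sham mice it was listed at 0.314, 0.348, 0.275, 0.556 and 0.535 FPKM. Every sham mouse thus had signal that no nAAC mouse was listed with, and with no counts the size of the change has no bound. The fitted difference was -0.49 (SE 0.069, limma adjusted p = 0.000254). Cacng8, which lies between them, was listed at 0 in 9 mice and at 0.0679 in sham replicate 3. Of the other 5 gamma genes, Cacng1 of skeletal muscle reached at most 0.168 FPKM, Cacng4 and Cacng5 at most 0.0141, and Cacng2 and Cacng3 were listed at 0 in all 10 mice.

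Among the sodium channel pores, the skeletal muscle pore Scn4a and the sensory nerve pore Scn10a fell. Scn4a (chromosome 11, 106318592 to 106353288, minus strand) encodes Nav1.4, the pore of skeletal muscle and low in heart. Its FPKM was 0.350, 0.546, 0.162, 0.904 and 0.664 in nAAC mice and 4.29, 1.88, 1.47, 1.19 and 1.79 in sham mice. The groups did not overlap, sham replicate 1 was the highest, and the means of 0.525 ± 0.285 and 2.12 ± 1.24 (SD, n = 5 each) differed 4.04-fold. The log2 FC was -0.98 (SE 0.22, limma adjusted p = 0.0042), and -0.77 to -1.09 when any 1 mouse was left out. Of 4 skeletal muscle markers, Mylpf, Actn3, Myh1 and Tnni2, none reached a mean FPKM of 1, and their sum was 0.590 to 1.05 in nAAC and 1.29 to 2.21 in sham mice. Tnni2 moved with Scn4a, at 0.0811 to 0.297 FPKM in nAAC and 0.947 to 1.77 in sham mice, while Mylpf overlapped between the groups at 0.434 to 0.747 in nAAC and 0.0865 to 0.711 in sham mice and did not pass (limma adjusted p = 0.629). The myosin gene Myh1 was at most 0.0222 in any mouse. The part of skeletal muscle RNA in the Scn4a result was not tested.

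Scn10a encodes Nav1.8 of sensory neurons. It was listed at 0.0277, 0, 0.0335, 0.0414 and 0.0114 FPKM in nAAC mice and at 0.117, 0.186, 0.169, 0.279 and 0.198 in sham mice. All sham mice lay above all nAAC mice, at levels far under 1 FPKM. The log2 FC was -0.22 (SE 0.055, limma adjusted p = 0.0115). Among 8 nerve and Schwann cell markers the summed FPKM was 2.26 to 5.27 in nAAC mice and 2.81 to 3.88 in sham mice, with Th listed at 0 in 9 of 10 mice, Tubb3 higher in nAAC (0.714 to 2.67 against 0.0771 to 0.259 FPKM) and Dbh lower (0.0373 to 0.157 against 0.868 to 1.5). The part of nerve fibres in the Scn10a result was not tested. Scn7a, which encodes the sodium-sensing relative Nax that does not act as a fast voltage-gated pore, was at 6.84, 4.81, 3.38, 7.26 and 6.19 FPKM in nAAC mice and at 3.97, 4.54, 4.78, 2.67 and 4.04 in sham mice. nAAC replicate 3 lay among the sham mice, and Scn7a did not pass with all mice (log2 FC 0.40, SE 0.18, limma adjusted p = 0.107) but did without nAAC replicate 3 (0.55, adjusted p = 0.0242). Scn3a, a pore of the embryonic brain, did not pass at 0.163 to 0.407 against 0.0866 to 0.385 FPKM. The other 5 pores, Scn1a, Scn2a, Scn8a, Scn9a and Scn11a, reached at most 0.142 FPKM, the highest value of Scn2a.

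Among the sodium channel beta subunits, single-span proteins that tune the gating of the pores, Scn4b and Scn3b did not pass. Scn4b, a beta subunit that links covalently to its pore, was at 0.240, 0.430, 0.321, 0.925 and 0.401 FPKM in nAAC mice and at 0.648, 0.664, 0.511, 2.02 and 0.921 in sham mice. nAAC replicate 4 lay among the sham mice, and it did not pass with the deposited scaling (log2 FC -0.39, SE 0.18, limma adjusted p = 0.126). Scn4b passed after upper-quartile scaling (-0.48, adjusted p = 0.0443) and with length and GC trends removed (-0.71, adjusted p = 0.0119), and it was at -0.22 (adjusted p = 0.21) without sham replicate 4, its highest mouse. Scn3b did not pass at 0.307 to 0.507 against 0.0638 to 0.354 FPKM (limma adjusted p = 0.0658), and Scn2b, 8.32 kb from Scn4b, had 0.0891 to 0.164 against 0.0109 to 0.125 FPKM.

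Of the pacemaker channels, which conduct an inward current when the cell hyperpolarizes, Hcn4 fell and Hcn2 did not pass. Hcn4 (chromosome 9, 58823412 to 58863175, plus strand) encodes the main sinus node form, present in the fetal ventricle. It was at 0.347, 0.728, 0.397, 0.713 and 0.640 FPKM in nAAC mice and at 1.65, 1.37, 1.12, 1.17 and 0.869 in sham mice. All nAAC mice lay below all sham mice, though sham replicate 5 came near, and the means of 0.565 ± 0.180 and 1.23 ± 0.291 (SD, n = 5 each) differed 2.18-fold. The log2 FC was -0.51 (SE 0.11, limma adjusted p = 0.00536), and -0.37 with Xist as a covariate (adjusted p = 0.0699), the alternative in which the call ended. The LV tissue held a varying amount of atrial transcript, since Myl7 ran from 0.654 to 79.8 FPKM in nAAC and from 1.16 to 22.3 in sham mice, with Bmp10 listed at 0 in 9 of 10 mice. The summed FPKM of the 5 atrial markers was 3.84 to 228.4 in nAAC and 12.1 to 55.2 in sham mice, and of the 4 tested only Kcnj3 passed, lower in nAAC at 1.13 to 2.11 against 9.05 to 12.1 FPKM. With Myl7 as a covariate Hcn4 had a log2 FC of -0.53 (limma adjusted p = 0.00815).

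Hcn2, the main ventricular form, was at 4.66, 3.71, 5.35, 6.32 and 6.02 FPKM in nAAC mice and at 6.28, 4.43, 4.41, 7.0 and 8.01 in sham mice. The ranges overlapped and it did not pass as deposited (log2 FC -0.16, SE 0.17, limma adjusted p = 0.477). With trends on transcript length and GC content removed it was lower in nAAC (log2 FC -0.70, limma adjusted p = 4.54e-05), and its transcript, at 65.4% G and C, had the highest GC content of the 12 tested members. Hcn3 was listed at 0 in 6 of 10 mice and at most at 0.0401. Hcn4, which passed, and Hcn2, which did not as deposited, are shown with the bases before their RefSeq starts, Hcn4 at chr9:58822699-58822948 and Hcn2 at chr10:79716384-79716633, both on the plus strand of GRCm38.p6, with the same capitals as above.
Hcn4: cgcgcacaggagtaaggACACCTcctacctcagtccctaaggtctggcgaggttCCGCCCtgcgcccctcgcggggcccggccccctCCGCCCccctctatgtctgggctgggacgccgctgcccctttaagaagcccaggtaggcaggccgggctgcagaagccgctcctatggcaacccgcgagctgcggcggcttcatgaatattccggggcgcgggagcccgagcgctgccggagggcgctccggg
Hcn2: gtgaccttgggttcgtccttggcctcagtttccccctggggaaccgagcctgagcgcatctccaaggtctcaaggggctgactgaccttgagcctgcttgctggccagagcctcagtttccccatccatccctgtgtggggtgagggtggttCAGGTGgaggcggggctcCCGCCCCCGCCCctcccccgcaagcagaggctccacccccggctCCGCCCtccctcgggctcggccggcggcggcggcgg
The Hcn4 stretch held 2 GC boxes and 1 T-box letter run (AGGTGT, either strand), and the Hcn2 stretch 3 GC boxes and 1 E-box. At 71.2% and 70.4% G and C both were above the median window.

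**Figure D2:**
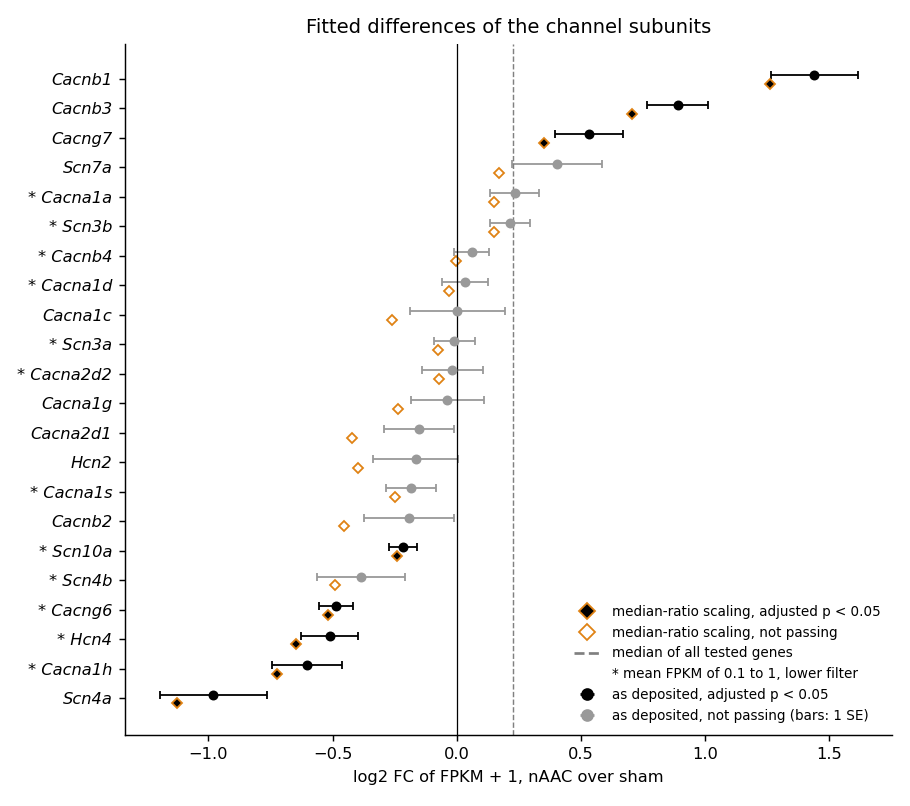
Fitted log2 FC of FPKM + 1, nAAC over sham, of 22 members with a mean of at least 0.1 (circles with bars of 1 SE, black where the adjusted p is below 0.05), with the value after median-ratio scaling as diamonds below each, filled black where it passes. The 8 members shown that pass do so on both scalings, Cacnb1 is the farthest right at 1.44 and Scn4a the farthest left at -0.98, and the dashed line marks the median of all tested genes at 0.22.

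A ratio of a pair of subunits within a mouse depends little on the scaling between libraries, apart from the 0.1 FPKM added to both genes, so 12 pairs of a cardiac subunit with a fetal, pacemaker or other relative were compared with 2-sided exact permutation tests of log2 ratios, adjusted over the 12, of which 7 are reported here. The smallest p of 5 mice against 5 is 0.0079, or 0.019 after adjustment here. It was reached by 3 of the 7 pairs, each without overlap of the groups. The pairs were chosen with earlier results of these data known. They reuse FPKM already tested above, so these p-values are no separate test. The ratio of Cacnb1 to Cacnb2 had the largest difference of the 7. It ran from -1.90 to -1.32 on the log2 scale in nAAC mice, against -5.51 to -3.21 for the sham group, a mean difference of 2.31. Cacnb3 to Cacnb2 ran from -2.47 to -1.84 against -4.18 to -3.37, a difference of 1.5. Both ratios were thus higher in nAAC in every mouse, with Cacnb2 still the larger of each pair by FPKM. Cacna1h to Cacna1c lay between -5.26 and -4.11 against -4.08 and -2.87, a difference of -1.19, which was -1.33 with 0.01 FPKM added in place of 0.1 and -0.61 with 1. The T-type pore was thus lower relative to the L-type pore in every nAAC mouse than in any sham mouse.

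The other 4 of these pairs did not pass. Hcn4 to Hcn2 differed by -0.83 with overlapping groups (exact p = 0.056, adjusted 0.0952). Cacna1d to Cacna1c differed by 0.079 (exact p = 0.83), Cacna1g to Cacna1c by -0.062 (exact p = 0.81) and Cacna2d2 to Cacna2d1 by -0.016 (exact p = 0.96), each by less than the SD of either group.

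**Figure D3:**
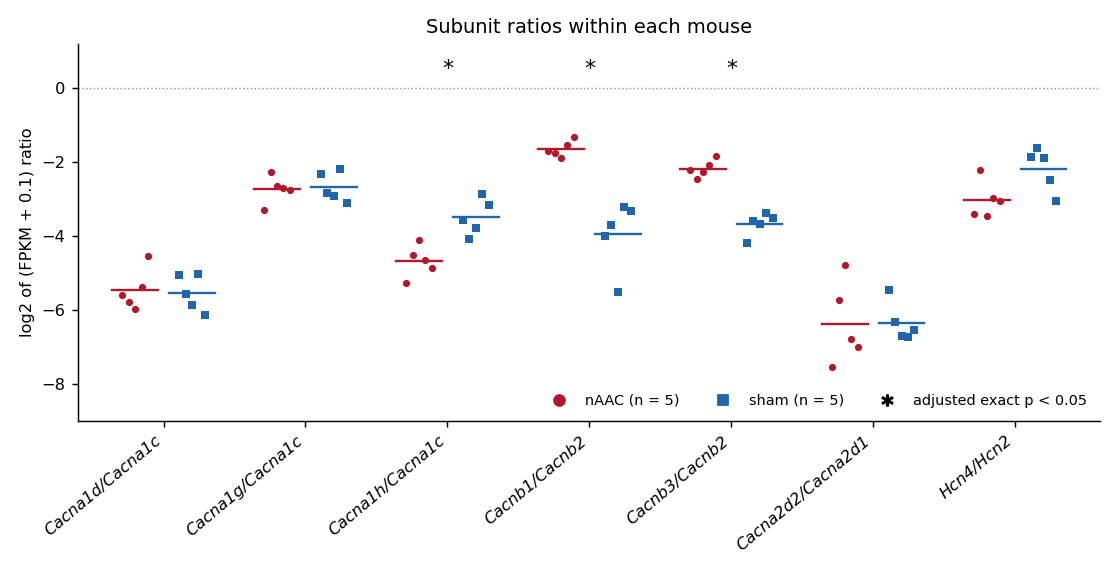
Log2 ratio of FPKM + 0.1 of 7 subunit pairs in each mouse (circles nAAC, squares sham, n = 5 each, short lines the group means), with a star over pairs with an adjusted exact p below 0.05. The starred ratios are those of Cacna1h to Cacna1c and of Cacnb1 and Cacnb3 to Cacnb2, and their groups do not overlap.

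The order of the levels depended on which deposited column was read. By mean FPKM, which is a level per length, Cacna2d1 was above Cacna1c and Cacnb2, which were above Hcn2 and Scn7a. By deposited coverage per estimated gigabase, also per base of the gene, Cacna2d1 was again above these at 12.5, but Hcn2 at 5.62, Scn7a at 4.85 and Cacna1g at 1.56 stood above Cacna1c at 1.06 and Cacnb2 at 0.274. For Hcn2, Scn7a, Hcn4 and Scn4b coverage was 5.18 times the FPKM, against 0.341 times for Cacna1c and 0.0881 times for Cacnb2. Cacna1a, at 0.605 times, was the other member of at least 0.1 FPKM with less coverage than FPKM. Mean FPKM was 23.9 ± 3.29 in nAAC and 26.7 ± 4.4 in sham mice for Cacna2d1, and the neighbours Cacna1c (16 ± 1.72 and 16.5 ± 4.71) and Cacnb2 (14.4 ± 1.96 and 17.0 ± 4.44, all SD, n = 5 each) did not differ beyond their spread. Read by coverage, Cacnb2 made up 23.2% ± 3.45 of the beta family in sham mice and 7.27% ± 0.343 in nAAC mice, and Cacnb1 37.4% ± 13.6 and 62.6% ± 1.26 (SD, n = 5 each). The share of Cacnb3 by coverage was 22.3% ± 2.83 in sham and 21.9% ± 1.09 in nAAC mice. The main beta subunit thus differed between the columns, while the shift from Cacnb2 to Cacnb1 in nAAC mice was seen in both. Folds between groups changed little, with coverage ratios of 4.06 for Cacnb1, 2.43 for Cacnb3 and 1.72 for Cacng7, and of 3.87 for Scn4a, 2.56 for Cacna1h and 2.19 for Hcn4 in the other direction.

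**Figure D4:**
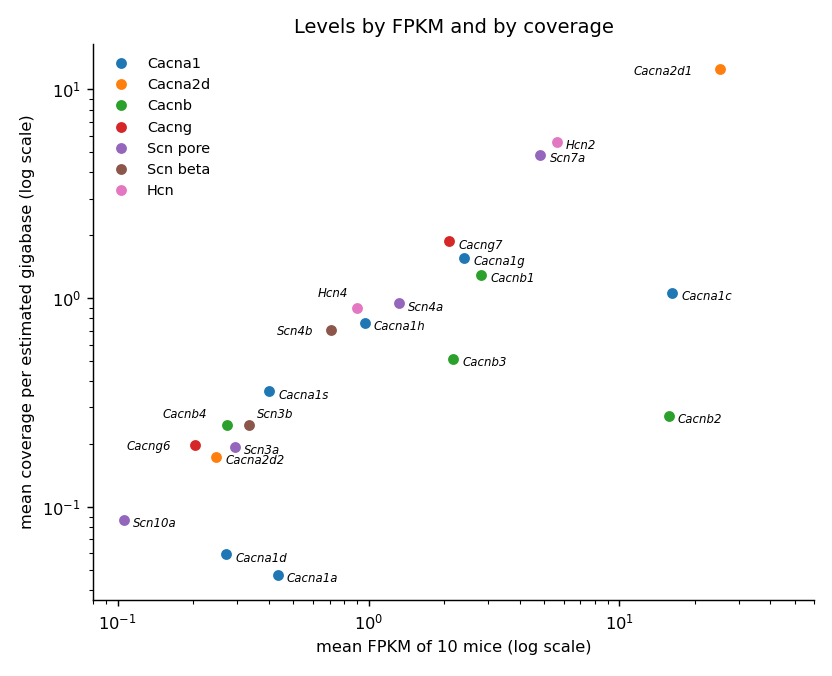
Mean FPKM of 10 mice against mean deposited coverage per estimated gigabase of depth, both on log axes, for 22 members with a mean FPKM of at least 0.1, colored by family. Most members lie along 1 line, and Cacna1c, Cacnb2, Cacnb3, Cacna1a and Cacna1d lie below it, with Cacnb2 at 0.274 by coverage.

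Lists that sort the members by where they are best known were read next. The 5 subunits known from the conduction system, the atrium and the fetal ventricle summed to 2.60 to 4.66 FPKM in nAAC mice and to 4.43 to 6.86 in sham mice. All 5 had a mean of at least 0.1, of which Cacna1h and Hcn4 fell and 3 did not pass, Cacna1g and Cacna1d among them. In the fit over all genes with such a mean, 22.6% rose and 4.04% fell. The 20 subunits best known from nerve, sensory organs, endocrine cells or skeletal muscle summed to 1.37 to 2.38 FPKM in nAAC and 2.63 to 5.73 in sham mice, and Scn4a alone gave 1.19 to 4.29 of the sham sums. Of the 20, 5 had a mean of at least 0.1 and 13 stayed under 0.1 in every mouse. Scn4a and Scn10a fell, against the same shares of all genes, and Cacna1a, Cacna1s and Scn3a did not pass. Cacna1g and Scn4a, read from the fit with a mean of at least 1, had the same calls in the wider fit. The 19 members under 0.1 were not tested. Among them Cacna1i was listed above 0 in all 5 nAAC mice, at 0.00796 to 0.0227 FPKM, and at 0 in all sham mice, and Scn8a in 4 nAAC mice at up to 0.0212 and in no sham mouse.

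Partners that anchor, inhibit or modulate these channels were read from a list of 25 genes, of which 16 were tested, 2 rose and 2 fell, with a median log2 FC of 0.31, where 27.1% of all tested genes rose and 4.6% fell. Fgf13, an intracellular FGF-related protein that binds the tail of sodium channel pores, had the largest log2 FC in size of the 16 tested. It was at 11.2, 12.1, 12.0, 12.2 and 12.2 FPKM in nAAC mice and at 25.7, 27.5, 26.3, 21.3 and 27.2 in sham mice. The nAAC values were nearly equal and all lay below the sham values (log2 FC -1.03, SE 0.11, limma adjusted p = 1.23e-05). Its deposited coverage was only 0.0285 times its FPKM, less than for Cacnb2 among the channel genes, and by coverage per estimated gigabase sham mice were 2.24-fold above nAAC mice, against 2.14-fold by FPKM. The log2 FC fitted on coverage was -0.10 (limma adjusted p = 0.00201), at a coverage so low that the added 1 shrinks it. Akap7, which anchors protein kinase A at the L-type channel, was at 10.2, 10.5, 9.23, 10.8 and 12.0 FPKM in nAAC mice and at 14.9, 13.8, 16.9, 12.0 and 17.2 in sham mice. Its groups touched at one mouse of each (log2 FC -0.46, SE 0.12, limma adjusted p = 0.0129), and its call ended with TPM in place of FPKM (-0.31, adjusted p = 0.0993) and with Xist as a covariate (-0.47, adjusted p = 0.0584). Rem1, a small GTPase that binds beta subunits and inhibits the L-type current, was at 3.02, 3.27, 4.64, 4.30 and 3.73 FPKM in nAAC mice and at 1.85, 1.91, 1.35, 1.88 and 3.57 in sham mice. Sham replicate 5 lay among the nAAC mice, and Rem1 rose (log2 FC 0.65, SE 0.17, limma adjusted p = 0.0104). Its call ended with Xist as a covariate (0.43, adjusted p = 0.127) and with trends on length and GC content removed (0.29, adjusted p = 0.142). The calmodulin genes Calm2 and Calm3, the ankyrins Ank2 and Ank3, and Rrad, Gem, Cav3 and Gpd1l did not pass.

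Of 12 transcription factors of the conduction system and working myocardium, 10 were tested, 2 rose and 2 fell, with a median log2 FC of 0.12, against the same 27.1% and 4.6% of all tested genes. Tbx20, a factor of chamber myocardium, was at 23.4, 22.0, 20.3, 21.3 and 18.9 FPKM in nAAC mice and at 11.1, 13.6, 11.2, 5.90 and 12.2 in sham mice. The groups did not overlap (log2 FC 0.95, SE 0.18, limma adjusted p = 0.00145), and without sham replicate 4, the lowest, the log2 FC was 0.77. Tbx5, which drives conduction and atrial genes, was at 2.54, 4.00, 3.94, 3.49 and 2.80 FPKM in nAAC mice and at 5.96, 4.94, 4.69, 4.65 and 5.44 in sham mice. All nAAC mice lay below all sham mice (log2 FC -0.50, SE 0.12, limma adjusted p = 0.00813), and the call ended with Xist as a covariate (-0.42, adjusted p = 0.0776). Tbx18, a factor of the sinus node and epicardium, passed with a log2 FC of 0.34 (limma adjusted p = 0.0387) and Irx5, a factor of the ventricular gradient of repolarization, with -0.47 (limma adjusted p = 0.0494), and each lost its call in most alternatives, the one without sham replicate 4 among them. The pacemaker factor Shox2 was below 1 FPKM, at 0.487 to 0.674 in nAAC mice and 0.124 to 0.262 in sham mice, and passed in the wider fit (log2 FC 0.43, SE 0.068, limma adjusted p = 0.000495) but not with trends on length and GC content removed (0.24, adjusted p = 0.0749). Tbx3, the repressor that keeps pacemaker identity, did not pass (log2 FC 0.001, limma adjusted p = 0.998), nor did Nkx2-5, Irx3, Hey2, Tbx2 or Rest, the repressor of nerve and fetal cardiac genes. Irx3 was at -0.52 as deposited (limma adjusted p = 0.161) and passed after median-ratio scaling (-0.77, adjusted p = 0.0321). Isl1 was listed at 0 in 8 of 10 mice.

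**Figure D5:**
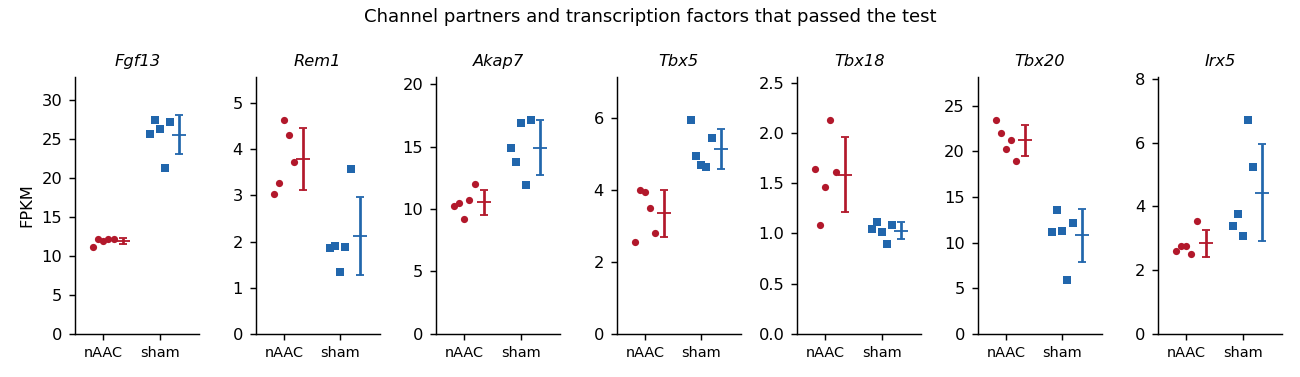
FPKM of 3 channel partners and 4 transcription factors that passed the test, each panel with its own axis from 0, one point per mouse (circles nAAC, squares sham) and bars of the mean and 1 SD (n = 5 each). Fgf13, Tbx5 and Tbx20 have groups apart from each other, and Rem1, Akap7, Tbx18 and Irx5 overlap.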

How the data were processed

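The authors made RNA libraries from Trizol extracts with a NEBNext Ultra kit, and their use of strand is not given in the sources used here, nor are the aligner and the quantifier. For each mouse the authors deposited, per gene on mm10, a coverage (mean read depth per base), an FPKM and a TPM, in the table layout of StringTie. The deposited FPKM are normalized for length and depth, and the TPM are rescaled by the authors to the same total in each library. Rows sharing a gene ID (12 to 21 per table) were summed, and 55141 of the 55401 genes were found in GENCODE M21. The commonest ratio of coverage to FPKM served as the estimate of depth. The counts cannot be recovered, so no count model was fitted.

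Groups came from the sample labels. For all genes whose mean FPKM reached 1, limma 3.58.1 (R 4.3.3) was fitted to log2(FPKM + 1), its empirical Bayes step using the trend of variance on level, with Benjamini-Hochberg adjustment, and a call is an adjusted p below 0.05. Tested on simulated data, the fit called 191 of 200 genes changed by 1.5 on the log2 scale among 11867, with 6 unchanged genes called. The changed genes were drawn only from levels above that of every called member named here, so this rate does not speak for those members. Subunit ratios used a pseudocount of 0.1 and 2-sided exact permutation tests. Genes named with full values are members that passed, the main ventricular, T-type and pacemaker subunits whatever their result, and partners and factors that passed. The members, lists and pairs were chosen with earlier results of these data known. Alternatives were other scalings, units, filters, pseudocounts and covariates, removal of transcript length and GC trends by loess (lengths for 99.9% of tested genes), the replicate number as a block, and leaving out each mouse. Sequences are from RefSeq on GRCm38.p6. Plots used Python 3.11.15 and matplotlib 3.10.9. Some members, listed genes and ratios are not reported here, though counts, sums and adjustments include them. Plasma and single-nucleus data of the study were not used here.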

Additional observations from a re-analysis of the deposited data

Results flagged for a closer look

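Dixon's ratio, the distance of the highest or lowest mouse from the next one over the range of its group on the log2(FPKM + 1) scale, was at or under the limit of 0.71 for 5 values in all 49 groups examined (25 members with a mean FPKM of at least 0.1, each in nAAC and sham mice, without the nAAC values of Cacng6, which are all 0), where chance gives about 2.45 above it.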

How the results depend on the processing

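The count of members that rose, 4, was 3 to 5 under all alternatives. With Xist as a covariate it was 3, and among all tested genes 1593 rose and 390 fell, against 3211 and 546 without it. The single member that fell became 3 with TPM in place of FPKM, 5 with trends on length and GC content removed, 5 with no filter on low values and 5 with a mean FPKM of at least 0.1, the latter by construction since more members were tested, and 1 to 2 when any 1 mouse was left out. Members with an absolute log2 FC above 1 numbered 2 as reported, 4 with TPM and 4 with a pseudocount of 0.1. With trends on length and GC content removed they were again 2, but not the same ones. Cacnb1 was then just under the threshold at 0.992, and Scn4a was past it at -1.349. Members past the level filter numbered 12, and 25 at a mean FPKM of at least 0.1. The replicate number was tried as a replicate block and gave again 4 members higher, 1 lower and 2 with an absolute log2 FC above 1. Same-numbered mice correlated in their deviations at 0.192, -0.0953, -0.316, -0.0329 and 0.0409, and no library of the nAAC group matched best with its own number, so the numbers were not taken to pair the mice. No replicate block was run for the ratios, since a sign-flip test of 5 pairs cannot go below 0.0625.

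Direction was not stable for members near 0, none of which passed as reported. Cacna2d1 was at 0.012 with TPM. Cacna1c was at -0.262 and -0.25 after median-ratio and upper-quartile scaling, -0.011 without mitochondrial genes, -0.036 with Myl7 and -0.03 with Xist as a covariate, -0.327 with length and GC trends removed (adjusted p = 0.0127), -0.041 by coverage, and -0.188 to 0.108 when any 1 mouse was left out. Cacna1g was at 0.089 with TPM, 0.094 with Xist and -0.098 to 0.058 without single mice. Cacna1d was at -0.031 after median-ratio scaling, -0.028 after upper-quartile scaling, -0.227 with trends removed and -0.032 to 0.078 without single mice. Cacna1a was at -0.183 with trends removed. Removal of trends also brought Hcn2, Cacna2d1, Cacna1g and Scn4b below the threshold. Scn4b also passed with the replicate block (-0.39, adjusted p = 0.0216), and Tbx18 lost its call with it. Of 554 values of single genes under alternatives, 486 kept direction and call, 36 lost the call, 12 gained one and 20 changed sign.

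The 3 called ratios kept their call in every alternative. Cacna2d2 to Cacna2d1 was at 0.135 with a pseudocount of 1 and 0.046 by coverage, and -0.41 to 0.278 without single mice. Without single mice Cacna1g to Cacna1c ran from -0.179 to 0.082 and Cacna1d to Cacna1c from -0.148 to 0.208. The causes were not tested. The coverage alternatives were chosen after seeing the data. Without fragment counts no counting error could be attached to members under 0.1 FPKM, and a value listed at 0 there says little about absence.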

Other observations

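Genes outside the channel families that were chosen after their values were seen moved at low or moderate levels in the same tissue. Kcnj3, which encodes a subunit of the acetylcholine-gated potassium channel of atrium and sinus node, was at 1.13, 1.99, 1.38, 2.08 and 2.11 FPKM in nAAC mice and at 10.5, 12.1, 10.3, 9.05 and 10.1 in sham mice (log2 FC -2.07, SE 0.13, limma adjusted p = 2.96e-07). Its sham values ran from 9.05 to 12.1 FPKM, and the atrial light chain Myl7 ranged from 1.16 to 22.3 FPKM in the same mice. The part of atrial tissue in the Kcnj3 result was not tested. Pex5l, an accessory protein of pacemaker channels, was at 0.226, 0.240, 0.102, 0.345 and 0.226 FPKM in nAAC mice and at 0.0315, 0.0120, 0.158, 0.0567 and 0.0442 in sham mice (log2 FC 0.21, SE 0.067, limma adjusted p = 0.0346 in the fit with a mean FPKM of at least 0.1). Sham replicate 3 lay among the nAAC mice.

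Tubb3, a tubulin of neurons that other cells can express, was at 1.45, 2.67, 1.72, 0.831 and 0.714 FPKM in nAAC mice and at 0.259, 0.111, 0.0771, 0.133 and 0.114 in sham mice. Dbh, the enzyme that makes noradrenaline, went the other way, at 0.0908, 0.0791, 0.120, 0.0373 and 0.157 FPKM against 0.919, 1.03, 0.868, 1.5 and 1.16. Both groups were apart for each gene, and Th, the first enzyme of the same pathway, was listed at 0 in 9 of 10 mice.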
